A study of Rattus norvegicus with 20 samples.

Results

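Islets carrying an adenovirus for Nr4a1 were set directly against islets carrying one for Nr4a3, with 5 arrays in each group, 10 of the 20 arrays of the study. Groups were chosen by the sample titles. Primary islets of male Wistar rats aged 8 weeks were kept at 8 mM glucose and 10% serum, exposed for 18 h to a virus (untreated islets to none), and collected 48 h after its addition. The other 10 arrays are 5 of untreated islets and 5 of islets that received a virus for green fluorescent protein (GFP), and they serve as reference levels and share the estimate of spread. Titles, sample characteristics and the series design name GFP, Nr4a1 and Nr4a3, whereas the treatment protocol names viruses for beta-galactosidase and Nkx6-1. This conflict is not settled here. The sources used here do not name the animals behind each sample, so a p value compares a difference with the spread between these samples only.

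Nr4a1 and Nr4a3 are orphan nuclear receptors of one family. They act as transcription factors without a known circulating ligand, are induced within minutes to hours by many stimuli, and bind a short DNA element called the NGFI-B response element (NBRE), in which an AAAGGTCA octamer is read by a single receptor molecule. Because both family members read the same element, the question for this comparison is whether the groups differ in kind, with genes that respond to one receptor alone or in opposite directions, or only in the size of a response that both show.

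Before any difference is read, the labels and the arrays need a check. The Nr4a1 probe set read 6.07, 5.82, 6.06, 5.91 and 6.11 on the log2 intensity scale in the arrays labelled Nr4a1 (replicates 1 to 5, the order used throughout) and 6.11, 6.38, 6.07, 5.91 and 5.98 in those labelled Nr4a3. The brightest Nr4a3 probe set read 6.01, 6.15, 5.87, 6.13 and 6.18 in the arrays labelled Nr4a1 and 5.64, 6.10, 5.80, 5.67 and 5.89 in those labelled Nr4a3. Both ranges overlapped, and the log2 differences, Nr4a1 minus Nr4a3, were -0.10 ± 0.09 (SE) and 0.25 ± 0.10 (limma adjusted p = 0.667 and 0.326). Without Nr4a3 replicate 2 they were -0.03 and 0.32 (adjusted p = 0.959 and 0.0908). A dimmer Nr4a3 probe set was then higher in the arrays labelled Nr4a1 by 0.55 ± 0.13 (adjusted p = 0.0509 over all probe sets), but by 0.25 ± 0.23 with all arrays (0.671). The third Nr4a3 probe set differed by -0.25 with all arrays and by -0.03 without that array (adjusted p = 0.567 and 0.961). Nr4a2, the family member that no virus carried, differed by -0.39 ± 0.10 (adjusted p = 0.109) and by -0.28 without that array. Whether these probe sets read the transcript made by the viruses was not tested. They therefore check neither label, the groups are named below as labelled, and an exchange of both labels would turn the sign of every difference given.

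Nr4a3 replicate 2 stood apart. Its mean correlation with the other arrays across genes was 0.941, against 0.982 to 0.989 for the other 19, and its actin controls were brighter at the 3′ end of the transcript than at the 5′ end by a log2 of 4.62, whereas elsewhere this gap was at most 2.21. Median intensities ran from 98.9 to 103 (linear). The number of arrays limits the precision. Differences between the groups are given with all arrays and without Nr4a3 replicate 2 unless one fit is named. Beta cell genes were bright in both groups, with a list mean (log2) of 11.29 to 11.71 under Nr4a1 and 10.98 to 11.76 under Nr4a3.

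Sequence around the octamer is shown for the named genes of the comparison that hold it close upstream of their start, since both receptors can read it. The windows come from RefSeq on the GRCr8 assembly, cover the 250 bases before the annotated start, and were searched on both strands for AAAGGTCA, whose reverse complement is TGACCTTT. Each stretch is written on the strand of the gene, with the octamer in capitals.
Gas2: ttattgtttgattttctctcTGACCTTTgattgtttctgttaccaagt
Spats2l: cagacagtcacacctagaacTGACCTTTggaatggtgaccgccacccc
The Gas2 stretch is chr1:110618373-110618420 (plus strand) with its octamer 128 to 121 bases before the start, and the Spats2l stretch is chr9:66888950-66888997 (plus strand) with its octamer 178 to 171 bases before the start. Of 138 genes called in this comparison with or without Nr4a3 replicate 2, 109 had a window and 3 held the octamer (2.75%), the third being an unnamed locus. Over all genes tested, 128 of the 11733 genes with a window held it in any of their windows (1.09%). Counted by window instead of by gene, 415 of all 33469 RefSeq windows held it (1.24%). A match describes these letters and is not evidence of binding.

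Among the genes called, far more were higher than lower in the Nr4a1 arrays: Gyg1, which encodes the glycogenin that primes glycogen synthesis, was 3.54-fold higher, Gas2, a growth arrest-specific gene whose product binds the cytoskeleton, 3.13-fold, and Drd2, the dopamine D2 receptor gene, 2.28-fold. With all arrays 85 of 14217 genes (0.598%) were higher and 5 (0.0352%) lower at a limma adjusted p under 0.05. Together these are 0.633% of genes. Without Nr4a3 replicate 2, 116 (0.816%) were higher and 17 (0.12%) lower, 0.935% in all. Of these, 81 higher and 4 lower genes were called both times. Differences of at least 2-fold were found in 13 called genes with all arrays (0.0914%) and in 17 without that array (0.12%), all of them higher, and in 0 called genes that were lower. An unadjusted limma p under 0.05 was found in 1634 genes (11.5%), and in 1615 (11.4%) without the array. The arrays of both groups did not overlap in 75 of the 90 called genes (0.528% of all genes) and in 118 of the 133 (0.83%), beside 378 of all genes with all arrays (2.66%) and 641 without the array (4.51%). The 378, called genes included, also leaned this way, with 245 higher (1.72%) and 133 lower (0.935%). Without the array the 641 hardly did, with 328 higher (2.31%) and 313 lower (2.2%). Over all genes tested there was no such lean: 7002 differences were positive and 7215 negative with all arrays. Without the array they leaned the other way, with 6173 positive and 8044 negative. These counts rest on the spread shared by all 4 groups: a fit to only the 10 arrays compared called 1 gene, Gyg1, and the higher genes fell to 40, 45 and 49 without Nr4a1 replicate 1, Nr4a1 replicate 4 or Nr4a3 replicate 4. The lower genes numbered 2 to 17 when single arrays were left out.

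**Figure D1:**
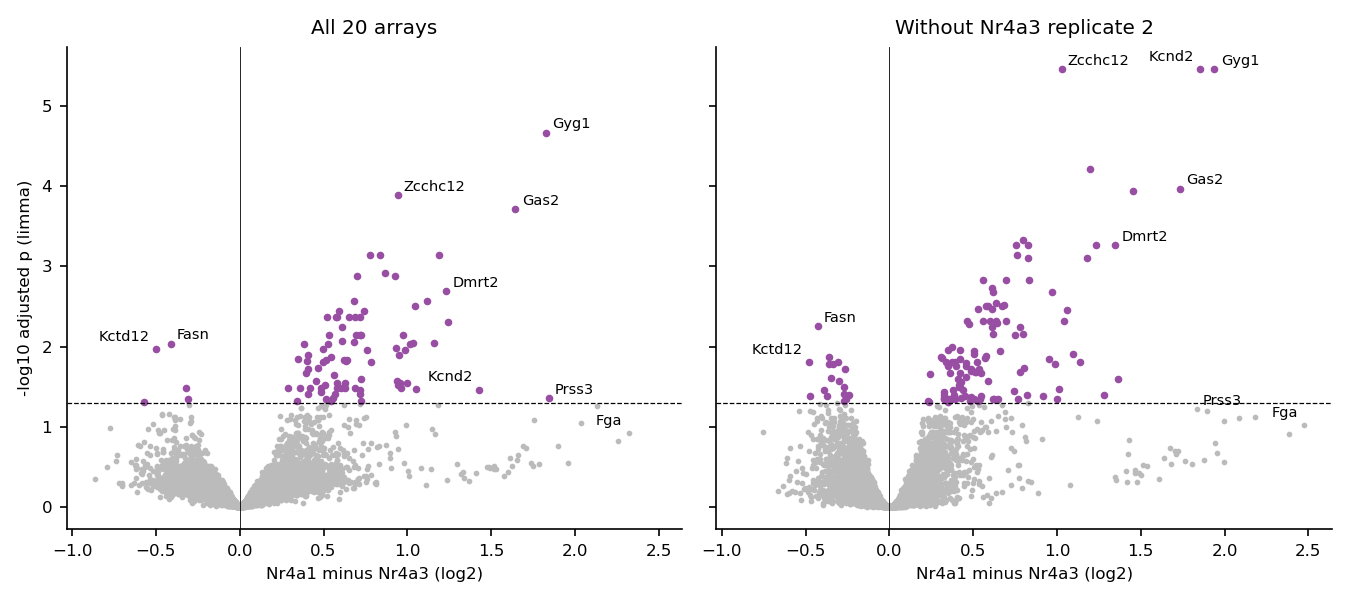
Log2 difference Nr4a1 minus Nr4a3 (x axis) against the -log10 limma adjusted p (y axis) for 14217 genes, with all arrays (left) and without Nr4a3 replicate 2 (right). Purple points pass an adjusted p of 0.05 (dashed line), 85 to the right of 0 and 5 to the left with all arrays, 116 and 17 without the array; Fga has the largest difference and lies under the line in both.

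Gyg1 separated the groups most firmly. Its log2 intensity was 13.03, 13.02, 12.31, 13.01 and 12.73 in the Nr4a1 arrays and 11.38, 11.45, 10.99, 10.45 and 10.70 in the Nr4a3 arrays. GFP arrays lay between 9.56 and 10.02 and untreated arrays between 9.61 and 9.99. Every Nr4a1 array was above every Nr4a3 array, and every Nr4a3 array above every control array. The difference was 1.83 ± 0.17 (SE, adjusted p = 2.14e-05), and 1.94 ± 0.17 without Nr4a3 replicate 2 (adjusted p = 3.45e-06). Against GFP, the Nr4a1 group had 2.98 more Gyg1 signal on the log2 scale and the Nr4a3 group 1.04 more (both called). Here and in what follows, values against GFP come from the fit without Nr4a3 replicate 2 unless another is named. Gyg1 was called under every alternative tried.

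Gas2 showed the same order. It read 10.97, 10.80, 10.84, 11.03 and 9.86 in the Nr4a1 arrays and 9.11, 9.40, 9.22, 8.46 and 9.08 in the Nr4a3 arrays, against 7.03 to 7.30 in the GFP arrays. All 5 Nr4a1 arrays lay above all Nr4a3 arrays, although replicate 5 of the Nr4a1 group was well below its 4 companions. The difference was 1.65 ± 0.19 (adjusted p = 0.000194) and 1.73 without Nr4a3 replicate 2, and both receptor groups were called above GFP, by 3.56 and 1.82.

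Kcnd2, which encodes the A-type potassium channel Kv4.2 of excitable cells, read 9.39, 9.01, 8.69, 9.21 and 8.73 in the Nr4a1 arrays and 7.53, 9.29, 7.35, 6.80 and 6.91 in the Nr4a3 arrays. The exception is again Nr4a3 replicate 2, which reached into the Nr4a1 range while the other 4 stayed below it. The difference was 1.43 ± 0.31 with all arrays (adjusted p = 0.0342), a call that ended without Nr4a1 replicate 1, 2, 4 or 5, Nr4a3 replicate 1, 3, 4 or 5 or GFP replicate 5 (adjusted p up to 0.137), and 1.85 ± 0.16 without Nr4a3 replicate 2 (adjusted p = 3.45e-06). A second Kcnd2 probe set gave 1.32 and 1.49. Both groups were above GFP, by 3.18 and 1.32.

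Drd2, whose receptor dampens insulin secretion, read 8.27, 7.85, 7.28, 8.00 and 7.75 in the Nr4a1 arrays and 7.02, 6.83, 6.74, 6.36 and 6.26 in the Nr4a3 arrays. GFP arrays were at 6.10 to 6.35. The groups did not overlap, and 2 Nr4a3 arrays were within 0.1 of the GFP range. Nr4a1 minus Nr4a3 was 1.19 ± 0.16 (adjusted p = 0.000715) and 1.23 without Nr4a3 replicate 2. Nr4a1 was above GFP by 1.58, while Nr4a3 minus GFP was 0.35 (95% interval 0.01 to 0.69, adjusted p = 0.299).

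Dmrt2, a transcription factor gene of the DM domain family, stayed near control levels in 4 of 5 Nr4a3 arrays. It read 7.29, 6.14, 6.13, 6.79 and 6.07 in the Nr4a1 arrays and 5.09, 5.71, 5.05, 5.18 and 5.23 in the Nr4a3 arrays, with GFP at 4.97 to 5.20. The groups did not overlap, 4 of 5 Nr4a3 arrays lay within 0.1 of the control range, and the fifth is replicate 2. The difference was 1.23 ± 0.18 (adjusted p = 0.00201) and 1.35 without that array, where Nr4a1 minus GFP was 1.43 and Nr4a3 minus GFP 0.08 (95% interval -0.29 to 0.45, adjusted p = 0.882). A second probe set differed by 1.14 and 1.27. The interval still allows a rise of up to 0.45 in the Nr4a3 group.

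The remaining large differences share no single role. Rom1, a photoreceptor disc membrane protein gene, differed by 1.24 (1.45 without Nr4a3 replicate 2), and Xdh, which encodes the purine-degrading enzyme xanthine dehydrogenase, by 1.16 (1.14). The GTPase gene Rasl11b differed by 1.05 (1.06), the peroxiredoxin-like gene Prxl2b by 1.12 (0.97), and the blood group protein gene Rhd by 1.02 (1.18). Aldh1a1, whose product makes retinoic acid, differed by 0.96 (1.09) and Pxmp4, a peroxisomal membrane protein gene, by 0.95 (1.20, with 1.28 and 1.14 for a second probe set). These 7 were called with and without the array, with adjusted p from 6.12e-05 (Pxmp4 without Nr4a3 replicate 2) to 0.033 (Aldh1a1 with all arrays). The call of Aldh1a1 ended without Nr4a1 replicate 1, 3, 4 or 5 or Nr4a3 replicate 3, 4 or 5 (adjusted p up to 0.137). That of Pxmp4 ended without Nr4a1 replicate 1, 2 or 4 or Nr4a3 replicate 1, 3, 4 or 5 (up to 0.120), while none of the other 5 genes lost its call to 1 array.

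**Figure D2:**
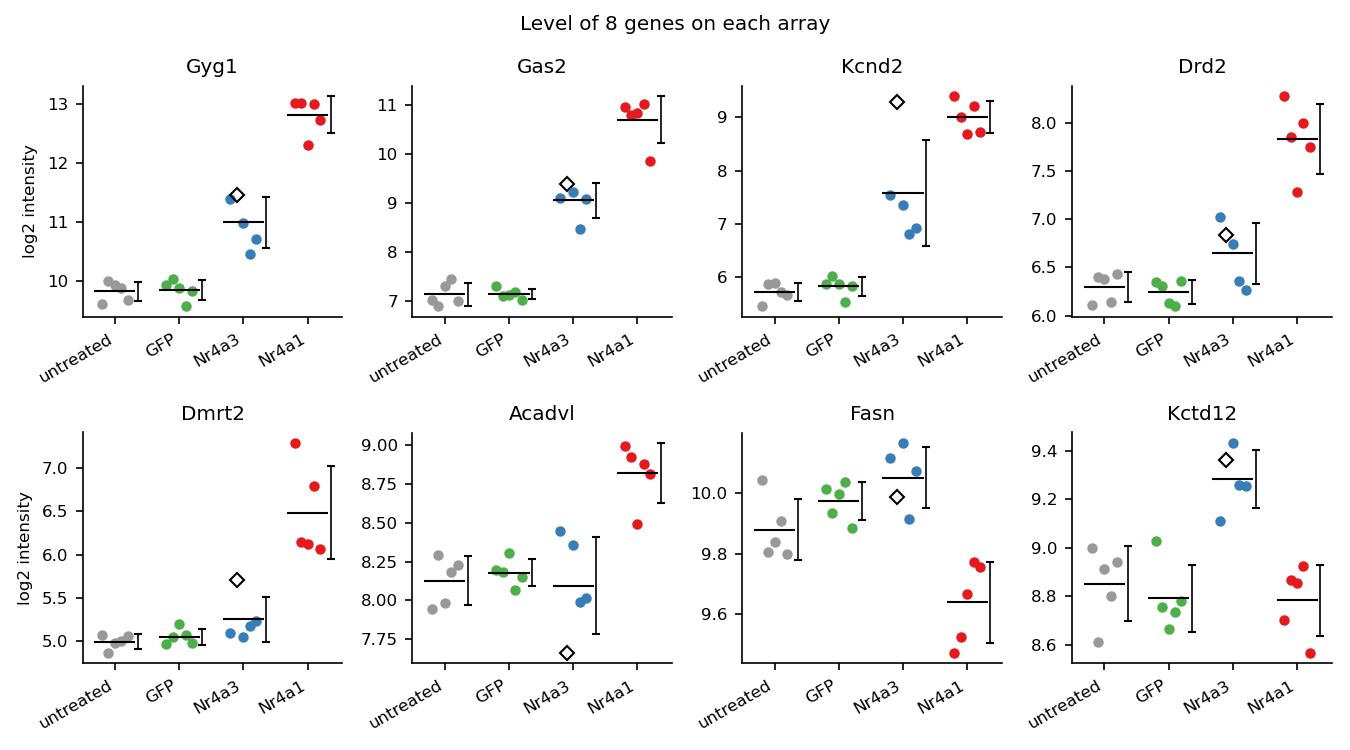
Log2 intensity (y axis) of 8 genes on each array of the 4 groups, with the mean (horizontal line) and SD (bar) of 5 arrays; the open diamond is Nr4a3 replicate 2. Gyg1 and Gas2 rise in 2 steps from control to Nr4a3 to Nr4a1, Dmrt2 and Acadvl are raised in the Nr4a1 arrays, Fasn is lower there, and Kctd12 is higher in the Nr4a3 arrays, at 9.11 to 9.43.

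Few genes were lower in the Nr4a1 arrays, and their differences were small. Fasn, which encodes fatty acid synthase, read 9.47, 9.53, 9.67, 9.77 and 9.75 in the Nr4a1 arrays and 10.11, 9.99, 10.16, 9.91 and 10.07 in the Nr4a3 arrays. The groups did not overlap, and GFP arrays, at 9.88 to 10.04, lay among the Nr4a3 values. The difference was -0.41 ± 0.07 (adjusted p = 0.00915) and -0.43 without Nr4a3 replicate 2. Fasn fell by 0.33 against GFP in the Nr4a1 group (adjusted p = 0.00215), and Nr4a3 minus GFP was 0.09 (95% interval -0.06 to 0.25). For a second Fasn probe set the values were -0.31 with all arrays (adjusted p = 0.320 over the probe sets) and -0.43 (0.0158). Of the other 16 lipogenesis genes measured none was called, beside 0.633% and 0.935% of all genes. Elovl6 was at -0.49 and -0.25 and Acly at -0.08 and -0.25.

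Kctd12, which encodes an auxiliary subunit of GABA-B receptors, stood out in the Nr4a3 group instead. It read 8.70, 8.87, 8.86, 8.92 and 8.57 in the Nr4a1 arrays and 9.11, 9.36, 9.43, 9.26 and 9.25 in the Nr4a3 arrays, with GFP at 8.67 to 9.03. All Nr4a3 arrays were above all others of the study, and Nr4a1 and GFP arrays overlapped. The difference was -0.50 ± 0.09 (adjusted p = 0.0107) and -0.48 without Nr4a3 replicate 2. Kctd12 rose by 0.47 against GFP in the Nr4a3 group (adjusted p = 0.00774), whereas Nr4a1 minus GFP was -0.01 (95% interval -0.20 to 0.18). A dimmer Kctd12 probe set differed by -0.19 and -0.35 and was not called, and the mean of both probe sets was not called either.

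Mnt, a repressor that competes with MYC for its partner, differed by -0.32 (-0.27 without Nr4a3 replicate 2), and the RNA-binding protein gene Rbpms by -0.31 (-0.34). Both were called both times, but the call of Mnt ended without replicate 1, 2 or 4 of Nr4a1 or replicate 5 of Nr4a3 (adjusted p up to 0.137), and Rbpms kept its call only without untreated replicate 1, Nr4a1 replicate 3 or Nr4a3 replicate 2 (up to 0.146 otherwise). Without Nr4a3 replicate 2 further genes passed: Lsm14b at -0.47, the transporter gene Slc7a4 at -0.39, Atrnl1 at -0.37, Fam76a at -0.36, Gas6 at -0.36, Vsig10 at -0.35 and Get1 at -0.30. Gas6 encodes a ligand of the TAM receptor kinases and Get1 a part of the machinery that inserts tail-anchored membrane proteins. In Slc7a4, Atrnl1, Gas6 and Vsig10 the left-out array was far below its 4 companions, and the other Gas6 probe sets gave -0.43 and 0.04, neither called. A second probe set gave -0.23 for Fam76a and -0.17 for Get1 without that array, neither called. Mycl was called at -0.57 with all arrays and not without the array (-0.45, adjusted p = 0.0650).

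Whether the differences were in kind or in size was read from the side of the GFP arrays on which each group lay. The comparisons with GFP share the same GFP arrays, so the counts describe the genes and are no test. Of the 116 genes higher in Nr4a1 without Nr4a3 replicate 2, 107 had both receptor means above the GFP mean and 9 had the Nr4a3 mean under it. The 95% interval of Nr4a1 minus GFP lay above 0 in all 116, that of Nr4a3 minus GFP lay above 0 in 77, spanned 0 in 39 and lay below 0 in none. With all arrays 78 of 85 had both means above GFP, and the Nr4a3 interval lay above 0 in 42 and spanned it in 43. Over all genes tested, both means were on one side of GFP in 77.5% without the array and 66.9% with it. Untreated arrays as the reference gave 110 of 116 and 75 of 85.

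The size of the shared rise differed. The median log2 change against GFP of the 116 genes was 0.80 for Nr4a1 and 0.28 for Nr4a3. In the 107 genes with both means above GFP, the Nr4a3 change was a median 36.4% of the Nr4a1 change on the log2 scale (quartiles 26.3 and 43.3), and it was under 50% in 94. With all arrays the median was 30.6% in 78 genes. Nr4a1 was called above GFP in all 116 and Nr4a3 in 40, beside 12.2% and 3.32% of all genes (6.86% and 0.387% were called below GFP). With all arrays 85 and 18 of the 85 were called above GFP, beside 6.16% and 1.75% of all genes (2.55% and 0.176% below). The genes were picked for a higher value in the Nr4a1 arrays, which favours a large Nr4a1 change by itself.

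**Figure D3:**
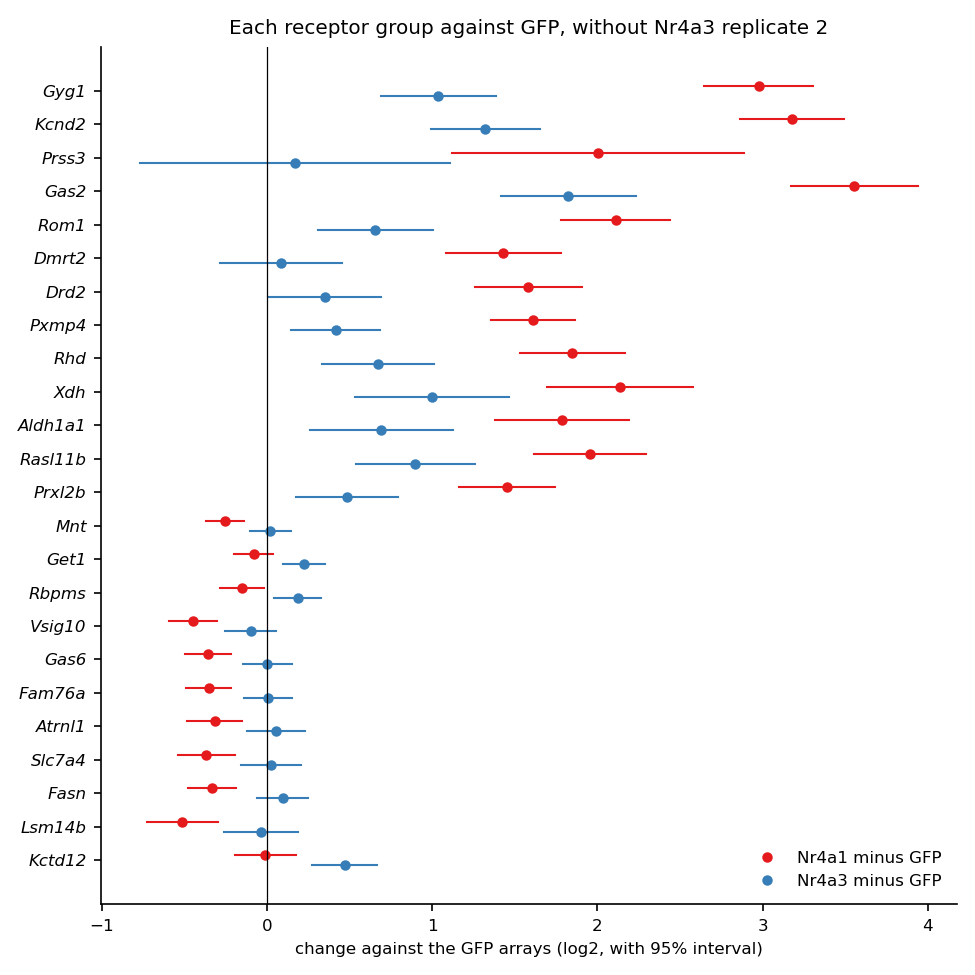
Change against the GFP arrays on the log2 scale (x axis) with its 95% limma interval, for the named genes with the largest differences (y axis), in the Nr4a1 (red) and Nr4a3 (blue) groups without Nr4a3 replicate 2. In the upper genes both means lie right of 0, with Nr4a1 further out (Gyg1 2.98 against 1.04), though the Nr4a3 interval of Dmrt2 spans 0. In the lower genes the groups lie on either side of 0 or one of them near it.

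The 9 exceptions among the higher genes, named here after their values were seen, were Prkcb, Myorg, Mitf, Enpep, Cklf, Polr3g, Aldh3a2, Lin37 and Arid3b. Their Nr4a3 means lay at most 0.17 under GFP (Enpep, 95% interval -0.47 to 0.14). Mitf, a basic helix-loop-helix transcription factor gene, read 7.77, 7.36, 7.14, 7.31 and 7.34 in the Nr4a1 arrays and 6.44, 7.16, 6.65, 6.53 and 6.74 in the Nr4a3 arrays, with GFP at 6.60 to 6.74. Without replicate 2 all Nr4a3 arrays were at or near the GFP range and all Nr4a1 arrays above it, a difference of 0.80 ± 0.10 (adjusted p = 0.000469) with Nr4a1 minus GFP at 0.70 and Nr4a3 minus GFP at -0.10. Prkcb, a protein kinase C gene, differed by 0.91, with 0.87 and -0.04 against GFP.

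Among the 17 genes lower in Nr4a1 without Nr4a3 replicate 2 the pattern was different: 12 had the receptor means on opposite sides of GFP, 4 had both below and 1 had both above. With all arrays 4 of 5 were on opposite sides and 1 had both below. Without the array the Nr4a1 interval lay below 0 in 12 of 17 and the Nr4a3 interval above 0 in 7. Both intervals excluded 0 on opposite sides in 2 of all 133 called genes, Rbpms and Tcfl5 (Tcfl5 is named after its values were seen). Which genes did so depended on the reference: with untreated arrays in place of GFP they were Fasn (-0.24 and 0.19), Get1 and Rbpms, and with all arrays Rbpms alone against GFP and Fasn and Rbpms against untreated arrays. Rbpms read 9.80, 9.94, 9.95, 9.85 and 9.65 in the Nr4a1 arrays, 10.22, 10.04, 10.17, 10.12 and 10.19 in the Nr4a3 arrays and 9.88 to 10.05 in the GFP arrays. Its groups did not overlap; GFP overlapped the Nr4a1 arrays and, of the Nr4a3 arrays, replicate 2. The changes against GFP were -0.15 for Nr4a1 and 0.19 for Nr4a3, neither called. Other Rbpms probe sets differed by -0.14 and -0.05 and were not called.

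A list of response genes known from earlier results of these data was also read. Of its 28 genes 1 was called in the direct comparison, Gas2, beside 0.633% of all genes. Its members were not ranked by size. Gyg1 (2.98 and 1.04 against GFP under Nr4a1 and Nr4a3) and Kcnd2 (3.18 and 1.32) were called but are not among them. The list had a median difference of -0.03 with all arrays and -0.08 without Nr4a3 replicate 2 (all genes -0.003 and -0.02). It mixes genes called above GFP under Nr4a1 (14) and below it (13), so opposite signs can cancel in this median. The median absolute difference was 0.34 and 0.25, beside 0.11 and 0.08 over all genes. An unadjusted limma p under 0.05 was found in 11 and in 6 of the 28, beside 11.5% and 11.4% of all genes. Sct, which encodes the gut hormone secretin, read 9.97, 9.62, 9.20, 9.49 and 9.29 in the Nr4a1 arrays and 10.40, 8.63, 10.17, 8.41 and 9.07 in the Nr4a3 arrays, with GFP at 5.09 to 6.15. Nr4a3 arrays spread wider and enclosed the Nr4a1 values, and the difference was 0.17 (95% interval -0.47 to 0.82) with all arrays and -0.003 (-0.65 to 0.64) without replicate 2. Gucy2c, the intestinal receptor guanylate cyclase C gene, read 10.53, 10.43, 10.36, 10.50 and 10.01 against 10.68, 8.78, 10.42, 9.76 and 10.23. Only Nr4a3 replicate 2 and 4 lay under all Nr4a1 arrays, and the difference was 0.39 (-0.17 to 0.94) with all arrays and 0.09 (-0.33 to 0.51) without replicate 2.

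With all arrays Nnat, the neuronatin gene, differed by 0.60 (95% interval 0.15 to 1.05, adjusted p = 0.300), beside rises against GFP of 3.81 and 3.21. Ddit4l, an inhibitor of mTOR signalling, differed by 1.08 (0.21 to 1.95, adjusted p = 0.326), and the creatine synthesis gene Gatm by -0.01 (-0.69 to 0.67). On the other side, the growth factor carrier gene Igfbp3 differed by -0.55 (-1.41 to 0.31) and the lysine breakdown gene Aadat by -0.79 (-1.42 to -0.17, adjusted p = 0.315). Without Nr4a3 replicate 2 the differences were 0.52 for Nnat, 0.83 for Ddit4l, 0.08 for Gatm, -0.67 for Igfbp3 and -0.60 for Aadat, none called. The intervals are wide, and differences near 1 on the log2 scale are not excluded for Ddit4l, Igfbp3 or Aadat.

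Fga, a fibrinogen chain gene, had the largest difference of all genes and was not called. It read 10.96, 11.55, 7.98, 11.44 and 11.68 in the Nr4a1 arrays and 10.23, 9.02, 8.81, 7.48 and 6.47 in the Nr4a3 arrays, with GFP at 5.30 to 6.07. Nr4a1 replicate 3 fell among the Nr4a3 values, so the groups overlapped, while every receptor array was above every GFP array. The difference was 2.32 ± 0.63 (adjusted p = 0.120) and 2.47 without Nr4a3 replicate 2 (adjusted p = 0.0954). Of 20 genes for fibrinogen and liver secreted proteins none was called, beside 0.633% and 0.935% of all genes. Fgg was at 0.77, and the list median was 0.05 and 0.07.

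Cell cycle genes are named in the series title. Of 45 G2/M and mitosis genes 0 were called, beside 0.633% of all genes (0.935% without Nr4a3 replicate 2), shares that would leave few calls in a list of this length. They had a median difference of 0.01 with all arrays and 0.05 without Nr4a3 replicate 2, beside medians of 0.84 and 0.77 against GFP for Nr4a1 and Nr4a3 with all arrays. An unadjusted limma p under 0.05 was found in 3 and in 1 of them, beside 11.5% and 11.4% of all genes. Of 44 G1/S and E2F target genes 0 were called, with medians of -0.01 and -0.02, beside 0.41 and 0.39 against GFP, and 6 and 5 had such an unadjusted p. Mki67, the marker of dividing cells, read 7.72, 7.04, 7.24, 7.85 and 7.76 in the Nr4a1 arrays and 8.06, 7.36, 7.87, 7.06 and 7.26 in the Nr4a3 arrays. Those ranges nearly coincide, and the difference was 0.00 ± 0.26 (95% interval -0.55 to 0.55), or -0.04 (-0.63 to 0.55) without Nr4a3 replicate 2. With all arrays Ccne1, which encodes cyclin E1, differed by -0.22 (-0.51 to 0.07), Ube2c of the anaphase-promoting complex by 0.23 (-0.27 to 0.73), Ccnb1 by 0.42 (0.04 to 0.79), Birc5 by 0.32 (0.03 to 0.60) and the kinesin gene Kif22 by 0.83 (0.32 to 1.35, adjusted p = 0.174). Without Nr4a3 replicate 2 these differences were -0.24 for Ccne1, 0.14 for Ube2c, 0.35 for Ccnb1, 0.27 for Birc5 and 0.61 for Kif22, none called, and 34 of the 45 mitosis genes had a positive difference.

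One brake of the cell cycle did differ. Cdkn2d, which encodes the CDK4 and CDK6 inhibitor p19, read 9.80, 9.40, 9.22, 9.69 and 9.23 in the Nr4a1 arrays and 8.87, 8.70, 8.99, 8.84 and 8.89 in the Nr4a3 arrays, with GFP at 8.32 to 8.73. All Nr4a1 arrays were above all Nr4a3 arrays. The difference was 0.61 ± 0.11 (adjusted p = 0.00855) and 0.57 without Nr4a3 replicate 2, with 0.98 and 0.41 against GFP, both called (Nr4a3 minus GFP not with all arrays, adjusted p = 0.0891). Of 11 CDK inhibitor and RB family genes Cdkn2d was the only call, beside 0.633% and 0.935% of all genes. The list median was -0.16 and -0.10, with Cdkn1b, which encodes p27, at -0.24 and Rb1 at -0.25, neither called.

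Acinar cell genes, for the digestive enzymes of the exocrine pancreas, had positive differences, Nr4a1 minus Nr4a3, of which few were called after adjustment. Of 32 measured, 31 had a positive difference, with a median of 1.52 (1.57 without Nr4a3 replicate 2, where 30 were positive). Yet 1 was called with all arrays and 0 without, beside 0.633% and 0.935% of all genes. An unadjusted limma p under 0.05 was found in 25 and in 23 of the 32, beside 11.5% and 11.4% of all genes. Groups were apart in 15 and in 18 of the 32, against 245 (1.72%) and 328 (2.31%) of all genes that were apart and higher. Nr4a1 arrays had a list mean of 9.40 to 10.49 and Nr4a3 arrays one of 8.37 to 9.15. GFP arrays reached from 6.93 to 8.89, into the Nr4a3 range but below every Nr4a1 array. Untreated islets reached from 6.96 to 9.90, and only their replicate 5, at 9.90, lay in the Nr4a1 range. With all arrays 26 of the 32 genes were called above GFP under Nr4a1 and 2 under Nr4a3, beside 6.16% and 1.75% of all genes. In bulk islets, more acinar cells and more acinar RNA per cell cannot be told apart.

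Prss3, a trypsinogen gene, is the called member. It read 10.11, 8.70, 8.69, 9.81 and 10.09 in the Nr4a1 arrays and 8.12, 7.59, 7.59, 7.48 and 7.40 in the Nr4a3 arrays. The groups did not overlap, but GFP arrays ran from 6.74 to 8.52 and untreated ones from 6.71 to 8.89. The difference was 1.84 ± 0.41 (adjusted p = 0.0434) and 1.83 ± 0.45 without Nr4a3 replicate 2 (adjusted p = 0.0605), and the call also ended without untreated replicate 1 or 3, GFP replicate 5, Nr4a1 replicate 1, 4 or 5 or Nr4a3 replicate 3, 4 or 5 (up to 0.172). The elastase gene Cela1 differed by 2.13 (adjusted p = 0.0545) and the lipase gene Pnlip by 1.76 (adjusted p = 0.0817).

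Because the acinar mean moved with the groups, the comparison was also fitted with that mean as a covariate. This limma fit called 14 genes higher and 0 lower with all arrays (1215 at an unadjusted p under 0.05) and 33 and 0 without Nr4a3 replicate 2 (1150), and 14 and 30 of these were among the 85. Gyg1, Gas2 and Drd2 kept their calls, whereas Kcnd2, Rom1, Dmrt2, Rhd, Pxmp4, Xdh, Aldh1a1, Rasl11b, Prxl2b, Acadvl, Cdkn2d, Fasn, Kctd12, Mnt and Rbpms lost theirs with all arrays. Their differences in that fit were 0.50 (Cdkn2d) to 1.35 (Kcnd2) for the higher genes and -0.30 (Rbpms) to -0.50 (Kctd12) for the lower ones. Without Nr4a3 replicate 2, Kcnd2, Rom1, Dmrt2, Rhd, Pxmp4 and Prxl2b kept their calls under this covariate as well. The GAPDH measure of RNA quality moved with the groups as well, whereas the actin measure did so only through Nr4a3 replicate 2. GAPDH controls were brighter at the 3′ end by a log2 of 0.271 to 0.357 in Nr4a1 arrays, 0.409 to 0.567 in 4 Nr4a3 arrays and 2.06 in Nr4a3 replicate 2. The actin gap was 1.497 to 2.022 in Nr4a1 arrays and 1.514 to 2.073 in the same 4 Nr4a3 arrays, so these ranges overlapped. With the GAPDH and actin gaps as covariates 45 genes were higher and 13 lower, of which 40 and 3 were among the 85 and 5. Acadvl, Cdkn2d, Xdh and Mnt lost their calls there, with adjusted p of 0.058, 0.059, 0.060 and 0.104. Prss3, itself on the acinar list, also lost its call there and in the acinar fit with all arrays. The part of either in the other differences was not tested further.

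**Figure D4:**
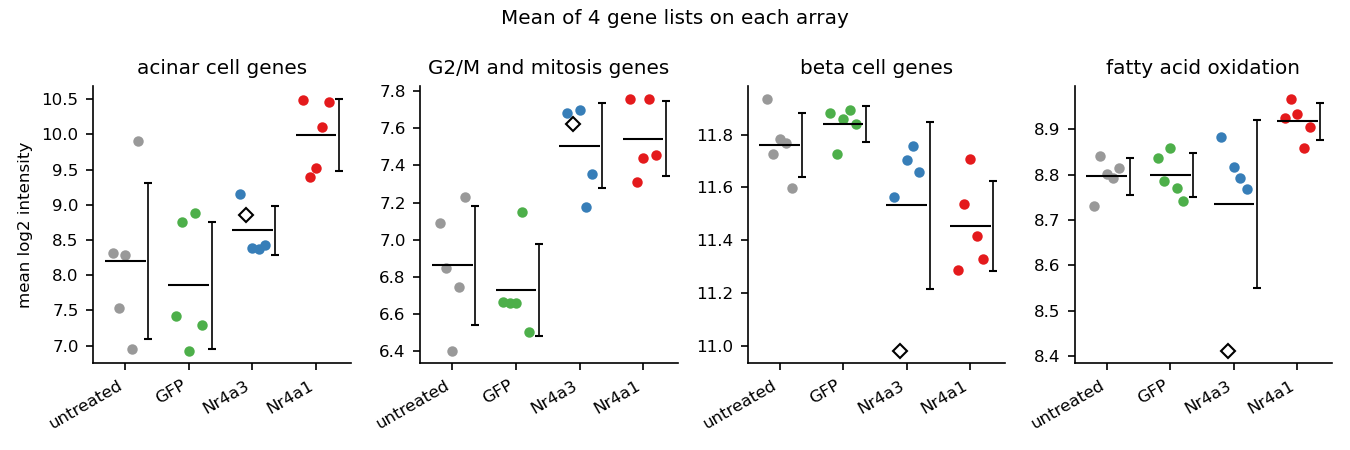
Mean log2 intensity (y axis) of the measured genes of 4 lists on each array, with the mean (line) and SD (bar) of 5 arrays per group; the open diamond is Nr4a3 replicate 2. Acinar means reach from 9.40 to 10.49 for Nr4a1 and from 8.37 to 9.15 for Nr4a3, G2/M means overlap, and Nr4a3 replicate 2 is the lowest point of the beta cell and fatty acid oxidation lists.

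Other cell type lists held few calls, and the shares over all genes, 0.633% (0.935% without Nr4a3 replicate 2), would leave few in lists of their length. Of 21 beta cell genes 0 were called, with a median of -0.06 with all arrays and -0.20 without Nr4a3 replicate 2, where all 21 had a negative difference and 9 an unadjusted limma p under 0.05 (3 with all arrays). All 23 fibroblast and stellate cell genes were negative in that fit too, as were 8044 of the 14217 genes tested. Such a p was found in 11.4% of all genes tested. Kcnj11, a subunit gene of the ATP-sensitive potassium channel, differed by -0.28 and the incretin receptor gene Gipr by -0.18 in that fit. Endothelial genes (0 of 15, median -0.16 and -0.09), fibroblast and stellate cell genes (0 of 23, -0.18 and -0.22), macrophage and leukocyte genes (0 of 20, 0.12 and 0.08) and other islet hormone cell genes (0 of 12, 0.04 and -0.04) had no call. In the duct cell list, with medians of 0.12 and 0.06, the carbonic anhydrase gene Car2 was the 1 of 16 called, and only without the array (0.77, adjusted p = 0.0453, beside 2.21 and 1.44 against GFP).

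Fatty acid oxidation genes included called members in the Nr4a1 direction. Acadvl, the very long-chain acyl-CoA dehydrogenase gene of mitochondria, read 8.99, 8.92, 8.49, 8.88 and 8.82 in the Nr4a1 arrays and 8.44, 7.66, 8.36, 7.99 and 8.02 in the Nr4a3 arrays, with GFP at 8.07 to 8.30. The groups did not overlap, though Nr4a1 replicate 3 and Nr4a3 replicate 1 came within 0.1. Acadvl differed by 0.72 ± 0.13 (adjusted p = 0.00710) and by 0.62 without Nr4a3 replicate 2, where Nr4a1 minus GFP was 0.64 and Nr4a3 minus GFP 0.02. Etfdh, which passes electrons from acyl-CoA dehydrogenases to ubiquinone, differed by 0.71 (adjusted p = 0.0945) and 0.46 (0.0161), and the carnitine carrier gene Slc25a20 by 0.47 (0.0577) and 0.35 (0.0485). In all 1 of 21 was called with all arrays and 3 without the array, beside 0.633% and 0.935% of all genes. The list medians were 0.21 and 0.08.

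Of 19 glycolysis and glycogen genes Gyg1 was the 1 called, with list medians of 0.20 and 0.12. The shares over all genes, 0.633% (0.935% without Nr4a3 replicate 2), would leave few calls in this list and in those that follow. The oxidative phosphorylation list (0 of 27) had medians of 0.20 and 0.05 and the cytosolic ribosomal protein list (0 of 20) 0.22 and 0.01, so these shifts were smaller without Nr4a3 replicate 2. Cholesterol synthesis genes (0 of 15) had medians of 0.17 and 0.09, lipogenesis genes (1 of 17) -0.06 and -0.11, and genes of amino acid enzymes and transporters (0 of 25) -0.001 and -0.04. No gene was called among the unfolded protein response (24), interferon response (22), NF-kB and inflammatory (23), immediate early (22), p53 target (14), exocytosis and calcium channel (28) and nuclear receptor (36) genes. Medians of these 7 lists lay between -0.02 and 0.02 with all arrays and between -0.12 and 0.04 without the array.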

How the data were processed

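Probe set intensity values were deposited on a linear scale; the authors made them with robust multi-array average (RMA), per the submitters' processing notes, which name no version. RMA corrects background, normalizes by quantiles and so assumes arrays of like distribution. Values were log2-transformed. Of 31099 probe sets, 57 controls, 9780 without a symbol and 436 with several were left out; 20758 of 20826 symbols were matched by gene identifier and 0 differed. The brightest probe set by mean over all arrays stood for each of 14217 genes (4525 had several).

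Fits used limma 3.58.1 in R 4.3.3: 1 mean per group, all 20 arrays, moderated two-sided tests with 16 residual and 3.64 prior degrees of freedom, Benjamini-Hochberg adjustment over all genes, and a call at an adjusted p under 0.05; the script was tested on simulated data. Differences are Nr4a1 minus Nr4a3. Genes named were the family, the 10 largest called differences each way with groups apart, up to 3 genes of each of 26 lists (600 of 687 entries measured) and earlier response genes. Members, lists and this rule were chosen with earlier results of these data known. Alternatives covered single arrays left out, the arrays fitted, a replicate block, variance models, weights, scaling, probe sets, an offset of 32 and covariates. The fits with the acinar covariate or with weights, each without Nr4a3 replicate 2, were chosen after seeing the data.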

Additional observations from a re-analysis of the deposited data

Results flagged for a closer look

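Single arrays stood away from the other 4 of their group in 13 of 64 sets of values tested, by a gap that chance gives in about 1 of 20 sets, and 10 of the 13 concern Nr4a3 replicate 2. That array had a mean correlation of 0.9407 with the others, control differences of 2.057 for GAPDH and 4.622 for actin, and a beta cell list mean of 10.98. Among genes it was low for Atrnl1 (6.713), Gas6 (9.112), Slc7a4 (7.117) and Vsig10 (8.710), and high for Dmrt2 (5.707) and Pxmp4 (10.61). Elsewhere, Nr4a3 replicate 1 was high for Prss3 (8.123), Nr4a1 replicate 5 low for Gas2 (9.858) and Nr4a1 replicate 1 low for Vsig10 (9.335).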

How the results depend on the processing

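All 90 called genes that were present kept their sign under every alternative tried, whereas the number called varied. Leaving out single arrays gave 40 (without Nr4a1 replicate 1) to 116 higher, 2 (without Nr4a1 replicate 2) to 17 lower and 39 to 112 called genes with both groups on one side of GFP; totals were 43, 69 and 47 without Nr4a1 replicate 1, 2 or 4, 55 and 64 without Nr4a3 replicate 4 or 5, and 117 without Nr4a1 replicate 3. Fitting only the 10 arrays compared gave 1 higher, 0 lower and 1 on one side, with 956 genes at an unadjusted p under 0.05; the 9 arrays without Nr4a3 replicate 2 gave 12, 0 and 10, with 1613. These fits estimate the spread from fewer arrays. Array weights gave 208, 66 and 222, so that 75.9% of calls were higher against 94.4%, and 188, 69 and 206 without Nr4a3 replicate 2. With the acinar mean as a covariate there were 14, 0 and 12, with 1215 genes at an unadjusted p under 0.05, and 33, 0 and 30 without Nr4a3 replicate 2, with 1150; with the control differences as covariates 45 were higher and 13 lower, 77.6% higher. Lower genes numbered 3 under a trended and robust variance, 2 when probe sets of a gene were averaged and 8 after adding 32 to each value. The cause of these shifts was not tested.

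With the replicate number as a block, 68 genes were higher and 2 lower. The sources used here do not say whether same-numbered arrays share islets, and this was not tested. Between same-numbered Nr4a1 and Nr4a3 arrays, correlations of deviations from the group mean were -0.05, 0.01, -0.14, -0.03 and -0.30. None of the 5 Nr4a1 arrays correlated best with the Nr4a3 array of its own number. Over the 120 named genes and the alternatives tried, 3960 values kept their side of the threshold, 131 fell short of it and 75 newly passed it. Those 3960 include differences that changed sign in genes not called either way, such as Sct. Precision is limited by 5 arrays a group; low signal was not assessed, as no detection calls were used.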
